A study of Mus musculus with 36 samples.

Results

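The regions described here are transfer RNA gene loci: the 391 genes of biotype tRNA on named autosomes in the RefSeq gene table of GRCm38.p6 (the mm10 build), each taken with 500 bp on both sides. They are 391 of the 47042 genes that the table places on autosomes, and were chosen by annotation alone. A locus was counted for a list when at least 1 peak of that list overlapped its window by at least 1 bp. The study located tagged histone H4 by ChIP-seq against the HA tag, in which fragments attached to the tagged histone are pulled down and sequenced. Peak lists of 4 mouse embryonic stem cell lines were used, each line stably carrying a PiggyBac vector: an empty vector, HA-tagged H4WT, H4K91R (lysine 91 of H4 replaced by arginine) or H4K91Q (lysine 91 replaced by glutamine). All 4 are labelled parental, the labels name no change to the cells' own histone H4 genes, and they do not say whether a line is 1 clone. Each group was 1 library of 36 in the series, so no difference between lists has a replicate check and no test between groups was possible. H4WT had the longest list with 69158 peaks, followed by H4K91R with 49155, H4K91Q with 14314 and the empty vector with 3007. Depth is unknown because the lists give no read counts, and a longer list reaches more places of any kind.

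Transfer RNAs carry amino acids to the ribosome. Their genes are short and are transcribed by RNA polymerase III from promoter elements inside the transcribed sequence, the A box and the B box, which the factor TFIIIC recognises. At transcribed tRNA genes the gene body is known to be kept largely free of nucleosomes. Lysine 91 of H4 lies where the H3-H4 tetramer meets the H2A-H2B dimers, so the residue changed here bears on how a nucleosome is held together. RefSeq symbols name the amino acid and the anticodon: n-TRtcg5 is a gene for arginine tRNA with anticodon TCG.

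The promoter windows of 4 neighbouring genes are shown because they contain tRNA gene bases beside a gene start. They were chosen from 8 such windows in the RefSeq table, and another of the 8, that of Ndufs7 with part of n-TNgtt7, is covered by an H4WT peak over 118 of its 250 bases. The sequences are the 250 bases before the gene start, from RefSeq (GRCm38.p6), 5′ to 3′ on the strand of the named gene, with the bases of the tRNA gene in capitals. Polg (mitochondrial DNA polymerase) on chr7:79466274-79466523, minus strand, holds all 73 bases of n-TRtcg5. Polr3e, itself a subunit of RNA polymerase III, on chr7:120917528-120917777, plus strand, holds 71 of the 82 bases of n-TLaag4. Gm32420, a long non-coding RNA gene on chr13:21222540-21222789, minus strand, holds n-TAagc16, the 1 locus of 105 on chromosome 13 with any peak. Gm46404, also non-coding, on chr13:23445972-23446221, minus strand, holds n-TVcac9, a locus with no peak in any list.
Polg: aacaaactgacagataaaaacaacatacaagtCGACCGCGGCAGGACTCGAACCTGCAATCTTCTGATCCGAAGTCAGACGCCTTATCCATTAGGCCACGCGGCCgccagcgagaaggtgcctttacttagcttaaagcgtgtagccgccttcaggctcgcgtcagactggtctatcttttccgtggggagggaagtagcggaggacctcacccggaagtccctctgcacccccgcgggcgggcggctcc
Polr3e: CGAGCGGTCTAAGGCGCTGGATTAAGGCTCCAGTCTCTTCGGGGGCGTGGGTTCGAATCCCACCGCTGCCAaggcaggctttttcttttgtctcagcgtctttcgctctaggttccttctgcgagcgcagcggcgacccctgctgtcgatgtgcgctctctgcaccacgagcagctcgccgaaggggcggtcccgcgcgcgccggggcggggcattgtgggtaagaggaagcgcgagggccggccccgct
Gm32420: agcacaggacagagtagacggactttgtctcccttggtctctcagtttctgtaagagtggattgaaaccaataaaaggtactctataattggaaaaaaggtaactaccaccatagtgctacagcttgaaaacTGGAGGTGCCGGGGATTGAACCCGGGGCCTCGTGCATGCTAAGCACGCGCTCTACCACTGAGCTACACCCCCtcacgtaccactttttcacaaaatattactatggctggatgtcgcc
Gm46404: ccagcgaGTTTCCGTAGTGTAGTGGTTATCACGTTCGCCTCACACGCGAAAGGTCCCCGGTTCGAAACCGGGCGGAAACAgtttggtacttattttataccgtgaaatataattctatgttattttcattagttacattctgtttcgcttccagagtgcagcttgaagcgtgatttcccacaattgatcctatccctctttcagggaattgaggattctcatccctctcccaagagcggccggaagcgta

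The B box, searched on both strands by its consensus with 1 free base, was found inside the tRNA bases of Polg as GGTTCGAGTCC (bases 44 to 54 of the window, on the opposite strand) and of Polr3e as GGTTCGAATCC (bases 50 to 60, same strand). It occurred in 11 of 32851 promoter windows of this length, or 0.0335%. The A box, searched by its degenerate consensus, occurred in 29.4% of windows and was found inside the tRNA bases of Polg (bases 88 to 98), Gm32420 (187 to 197) and Gm46404 (15 to 25). A match describes letters and not a bound site. The search allowed no mismatch to the consensus, and the Polr3e window lacks part of n-TLaag4. A missing match therefore does not show that a tRNA gene lacks the element. No peak of any list touched the 250 bases of these 4 windows. For 3 of them an H4WT peak began downstream of the neighbouring gene's start: 46 bp downstream for Polg (fold 7.95), 28 bp downstream for Polr3e (fold 9.13) and 269 bp downstream for Gm32420 (fold 3.77). Folds throughout are the authors' enrichment at the peak summit and describe peaks within 1 list. At all 3 loci the tRNA gene itself was thus left uncovered, with the H4WT region beside it.

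H4WT was found at 58 of the 391 tRNA loci, H4K91R at 20, H4K91Q at 2 and the empty vector at none. These are 14.8% for H4WT (exact 95% interval 11.5 to 18.8), 5.12% for H4K91R (3.15 to 7.79) and 0.512% for H4K91Q (0.062 to 1.84). No empty-vector peak among 391 loci allows a share of up to 0.767%, taking 3 counts of the total as the limit of a count of 0, here and below. The intervals cover the counting of loci only, and since neighbouring loci can share a peak they are too narrow. In all, 326 loci had no peak in any list.

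Over consecutive 1 kb tiles of the autosomes, the share with a peak was 3.27% for H4WT, 2.35% for H4K91R, 0.677% for H4K91Q and 0.142% for the empty vector. Among 4174 other genes of at most 200 bp, with the same 500 bp on each side, it was 10.4%, 6.18%, 0.647% and 0.455%. At protein-coding gene ends with 500 bp on each side it was 32.6%, 18.4%, 0.535% and 0.52%. Read against these, tRNA loci stood above the tiles for H4WT and for H4K91R, between short genes and coding gene ends for H4WT, and under the short genes for H4K91R, whose 6.18% lies inside the interval of the tRNA loci. The H4K91Q share was close to all 3 backgrounds. When each tagged list was held to its 14314 peaks of highest −log10 q, H4WT lay at 21 loci (5.37%, tiles 0.881%), H4K91R at 10 (2.56%, tiles 0.797%) and H4K91Q at 2, in the same order as with the full lists.

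Distance to protein-coding genes separated the loci. Of 47 loci within 1 kb of a protein-coding gene end, 23 had an H4WT peak (48.9%, 34.1 to 63.9) and 10 an H4K91R peak (21.3%, 10.7 to 35.7). Neither H4K91Q nor the empty vector had a peak there. Of the 344 loci farther away, 35 had an H4WT peak (10.2%, 7.19 to 13.9), 10 an H4K91R peak (2.91%, 1.4 to 5.28) and 2 an H4K91Q peak. The near and far intervals do not overlap for H4WT or for H4K91R. Other short genes differed in the same direction, with H4WT at 38.8% of those near a coding end and at 8.37% of those far from one, and H4K91R at 20.3% and 5.16%. All 4 of these shares lie inside the intervals of the tRNA loci at the same distance, so with all loci counted the 2 classes were not separated. For far H4K91R this rests on a chromosome 1 array described below, a split made after the data were seen. Without that array, far tRNA loci had H4K91R at 1.55% (0.506 to 3.59), under the 5.16% of far short genes (4.49 to 5.91). The remaining shares still lay inside the intervals. Among far short genes, H4WT was at 23.1% of miRNA, 4.2% of snoRNA and 2.13% of snRNA genes, and the tRNA loci lay between the first and the others.

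Windows of the same width placed 2, 5, 10 and 20 kb to either side gave the local level for the far loci. Of 2009 such windows that were themselves over 1 kb from coding ends and off any tRNA locus, 3.73% had an H4WT peak (2.95 to 4.66) and 2.64% an H4K91R peak (1.98 to 3.44). The H4WT share at far tRNA loci was above this, without overlap of the intervals. Flanking windows of neighbouring loci can overlap and share a peak, so their intervals, here and below, are also too narrow. For H4K91R the share of 2.91% at far loci lay inside the interval of their surroundings. H4WT in the surroundings was 2.12% at 2 kb, 3.79% at 5 kb, 3.67% at 10 kb and 5.21% at 20 kb.

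**Figure D1:**
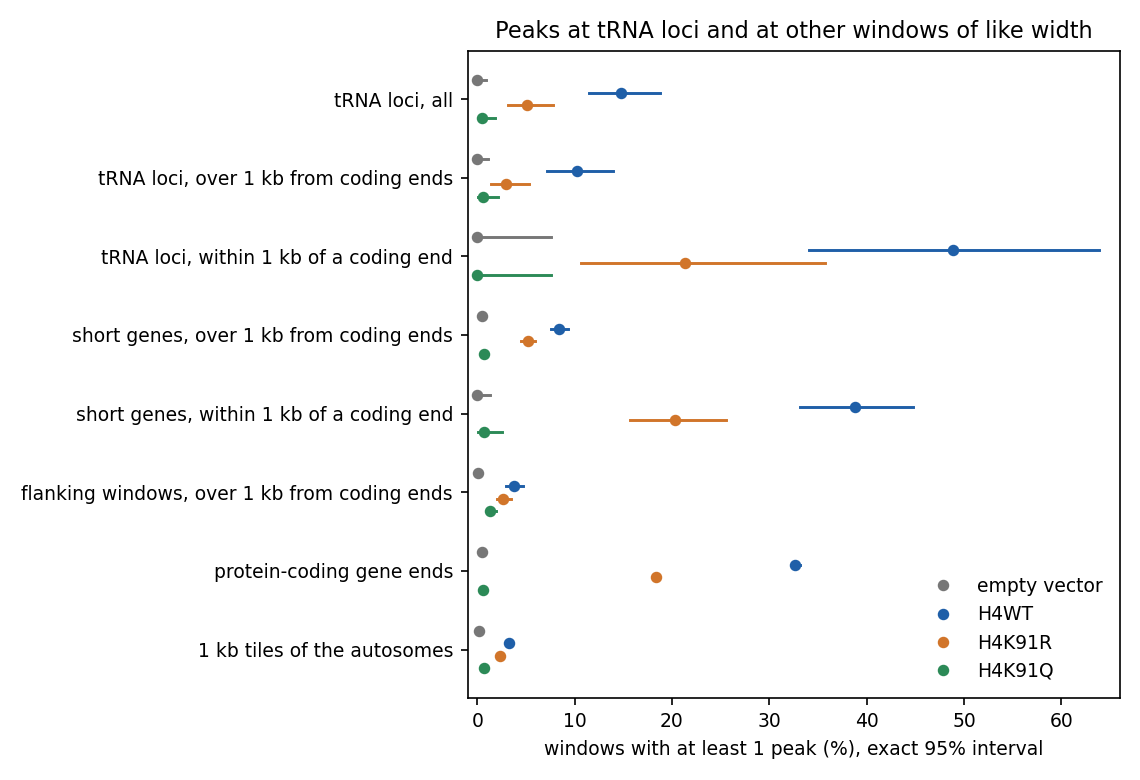
Share of windows with at least 1 peak (x axis, percent) in each of the 4 lists, for tRNA loci, other genes of at most 200 bp, windows flanking far tRNA loci, protein-coding gene ends and 1 kb tiles (rows). Points are shares and lines exact 95% intervals. H4WT reached 10.2% of far tRNA loci and 3.73% of their flanking windows, while H4K91R had 2.91% and 2.64%.

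For coding genes with a start in the RefSeq promoter table, the near loci could be divided further. H4WT lay at 17 of the 27 near loci within 1 kb of a coding start (63.0%, 42.4 to 80.6) and at 6 of the 20 beside another coding end or an unlisted start. H4K91R lay at 4 of the 27 and at 6 of the 20. Protein-coding starts as such, with 500 bp on each side, held an H4WT peak in 56.3% and an H4K91R peak in 32.3%. H4WT at tRNA loci beside coding starts was therefore near the level of coding starts in general. For H4K91R the 14.8% at these loci (4.19 to 33.7) had an interval that includes 32.3%. Of the far loci, 4 lay within 1 kb of a listed coding start that is not a gene end in the table, and n-TRtcg5 in Polg was the 1 of them with an H4WT peak.

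Peaks at tRNA loci mostly lay beside the gene and not on it. Outside a tRNA array on chromosome 1, which is described next, 45 loci had an H4WT peak, and at 44 of them no H4WT peak overlapped the tRNA gene. The gap from the gene to the nearest H4WT peak at these 44 loci had a median of 214 bp and ran from 16 to 474 bp. The exception was n-TEttc4, a glutamate tRNA gene inside Elf1 and 400 bp from Wbp4, where 1 peak ended just before the gene and another overlapped it. H4K91R had a peak beside the gene at all 12 of its loci outside that array, with a median gap of 214 bp.

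To set this against other places, the middle 73 bp of each window, the median length of a tRNA gene, was examined where the window had a peak. H4WT reached the middle in 1 of 45 tRNA loci outside the chromosome 1 array (2.22%, 0.0562 to 11.8), against 53 of 161 flanking windows (32.9%, 25.7 to 40.8), 220 of 435 other short genes (50.6%) and 65.3% of protein-coding starts. H4K91R reached it in 0 of 12 tRNA loci (up to 25.0%), against 35.3% of flanking windows (26.1 to 45.4). The low share was shared with other small RNA genes: H4WT reached the middle in 0 of 24 snRNA windows and in 6 of 66 snoRNA windows, but in 206 of 315 miRNA windows. How far each of these sequences can be mapped by short reads was not tested.

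The same gap appears when coverage is followed along the loci. Outside the chromosome 1 array, 0.273% of loci were under an H4WT peak at the gene's middle, against a highest value of 4.92% at 450 bp and a mean of 1.55% from 2 to 5 kb. H4K91R covered 0% of these genes' middles and at most 2.19%, at 600 bp. These values pool loci near and far from coding gene ends. Over all 391 loci, the array included, H4WT at 450 bp covered 23.4% of near and 3.49% of far loci. The far loci had their highest H4WT value, 4.07%, 250 bp to the left, against 0.581% at the gene's middle. The table gives no strand for tRNA genes, so left and right in the plot follow the chromosome and not the direction of transcription.

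**Figure D2:**
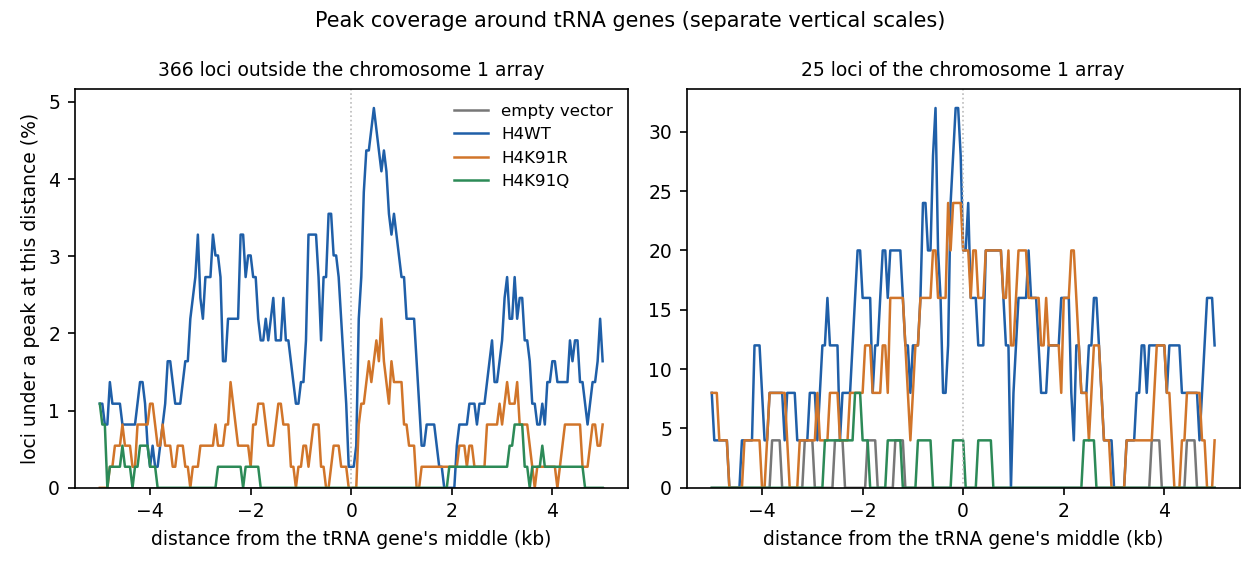
Percent of loci under a peak (y axis, separate scales) by distance from the tRNA gene's middle (x axis, kb), for the 366 loci outside and the 25 loci inside the chromosome 1 array. Lines are the 4 lists, with loci near and far from coding gene ends pooled. Outside the array the H4WT line falls to 0.273% at the gene and rises to 4.92% beside it, while inside the array it reaches 32.0%, 550 bp to the left of the gene.

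The array on chromosome 1 had the highest share of loci with a peak of the 6 arrays in all 3 tagged lists. It spans chr1:171033942-171111515 beside and inside Fcgr3, an Fc receptor gene, and holds 25 tRNA genes of 6 kinds in 77.6 kb, 9 of them for glycine. H4WT had a peak at 13 of the 25 (52.0%, 31.3 to 72.2), H4K91R at 8 (32.0%, 14.9 to 53.5) and H4K91Q at 2. The span held 206 H4WT peaks per Mb against 28.0 over all autosomes, 155 H4K91R peaks per Mb against 19.8, and 51.6 H4K91Q peaks per Mb, from 4 peaks, against 5.75. The array of chromosome 11 came close for H4WT, with 193 peaks per Mb, and that of chromosome 3 for H4K91Q, with 44.6 per Mb. The chromosome 1 span also held 1 empty-vector peak, which was at no tRNA locus and makes 12.9 per Mb against 1.22 over all autosomes. With tagged peaks that overlap an empty-vector peak left out, H4WT still lay at 58 tRNA loci, H4K91R at 20 and H4K91Q at 2.

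The tRNA loci of highest fold in the H4WT list were 4 consecutive genes of this array. n-TGtcc1 (glycine) and n-TDgtc3 (aspartate) share an H4WT peak of fold 13.1 at chr1:171064811-171065122, above 99.3% of the peaks of its list. n-TEctc5 (glutamate) had an H4WT fold of 12.3 and n-TLcag6 (leucine) one of 11.7. In the H4K91R list the highest fold at tRNA loci was 11.6, at a peak on chr1:171064388-171065141 that reaches n-TEctc5, n-TGtcc1 and n-TDgtc3. After these came n-TLcag8 and n-TGgcc14, which share an H4K91R peak of fold 11.3 and, in the H4WT list, one of 5.33. n-TLcag6 followed with an H4K91R fold of 10.1, and n-TGgcc12 with 8.66, from a peak that overlaps the n-TLcag6 gene. On the n-TGgcc12 gene itself the H4K91R peak had a fold of 7.08 and the H4WT peak one of 6.35. Here the peaks did cover genes: H4WT overlapped the tRNA gene itself at 7 of its 13 loci and H4K91R at 6 of its 8.

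H4K91Q reached tRNA loci through a single peak, at chr1:171064485-171064777, which lies in the windows of n-TEctc5 and n-TGtcc1 and overlaps the gene of n-TGtcc1. These were the 2 loci with a peak in all 3 tagged lists. Its fold of 3.64 was above only 6.76% of the H4K91Q list, whereas its −log10 q of 8.75 was above the list median of 6.69. Without this array, no H4K91Q peak lay at any of the 366 other loci, which allows a share of up to 0.82%. H4WT then lay at 12.3% of loci (9.11 to 16.1) and H4K91R at 3.28% (1.71 to 5.66), an interval that includes the 2.35% of the tiles. The 6.18% of other short genes lies above that H4K91R interval. Far from coding ends and outside the array, H4WT lay at 25 of 322 loci (7.76%, 5.09 to 11.2), still above the 3.28% of their flanking windows (2.53 to 4.19), and H4K91R at 5 (1.55%, 0.506 to 3.59), against 2.49% (1.83 to 3.3).

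**Figure D3:**
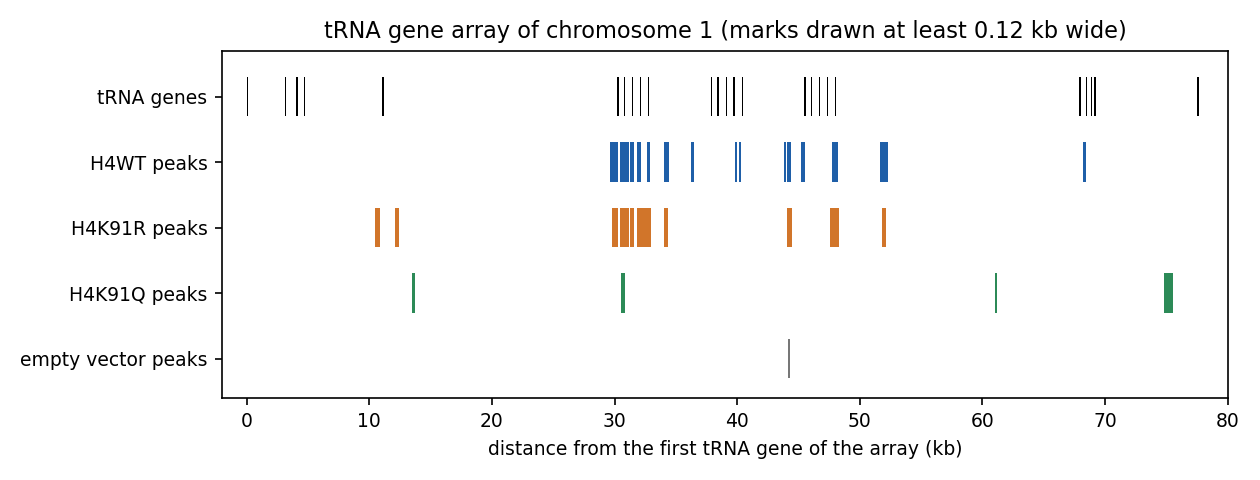
The tRNA array of chromosome 1, with distance from its first tRNA gene on the x axis (kb) and rows for the tRNA genes and the peaks of each list. H4WT and H4K91R peaks gather on the group of 5 genes near 30 kb, where the 1 H4K91Q peak at tRNA loci also lies, and the 1 empty-vector peak lies apart from any tRNA locus.

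The arrays of chromosomes 6 and 13 were almost without peaks at their tRNA genes, while those of chromosomes 3 and 11 had H4WT at 16.0% and 11.1% of loci. Chromosome 13 has an array of 59 loci in 890 kb (chr13:21160785-22050767) and one of 45 loci in 260 kb (chr13:23270421-23530419). The larger had H4WT at 1 locus, n-TAagc16, and no other list at any. The smaller had no peak at any locus, where none of 45 allows a share of up to 6.67%. On chromosome 6 (chr6:47978997-48363603) 49 cysteine tRNA genes had 1 H4K91R peak, at n-TCgca12 (fold 5.06), and no H4WT peak, which allows up to 6.12%. The array of 18 on chromosome 11 (chr11:69037003-69125248) had H4WT at n-TPcgg3 (proline, fold 6.61) and at n-TRtct4 (arginine, fold 9.11, inside Hes7, a gene of the segmentation clock). The array of 25 on chromosome 3 (chr3:96322074-96501518) had H4WT at 4 loci, the asparagine genes n-TNgtt10 (6.70) and n-TNgtt12 (6.16) and the histidine genes n-THgtg1 (5.10) and n-THgtg6 (4.75), and no H4K91R peak at any.

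Peaks were also called within these arrays outside the tRNA windows. The windows cover only part of each span, so these counts do not show that peaks keep away from the tRNA genes. In the larger chromosome 13 array the span held 14 H4WT, 7 H4K91R and 14 H4K91Q peaks, of which 13, 7 and 14 lay at no tRNA locus. Its density was 15.7 H4WT peaks per Mb, below the 28.0 of all autosomes, and 15.7 H4K91Q peaks per Mb, above the 5.75. The chromosome 3 array held 8 H4K91Q and 7 H4K91R peaks, none of them at a locus, and 12 H4WT peaks, 8 of them at none. The cysteine array held 11 H4WT peaks, all off the loci. By contrast, of the 170 loci outside any array of at least 10, 38 had an H4WT peak (22.4%, 16.3 to 29.4) and 11 an H4K91R peak (6.47%, 3.27 to 11.3). Among the 136 of these that are far from coding ends, H4WT lay at 19 (14.0%, 8.63 to 21.0) and H4K91R at 4 (2.94%, 0.807 to 7.36).

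**Figure D4:**
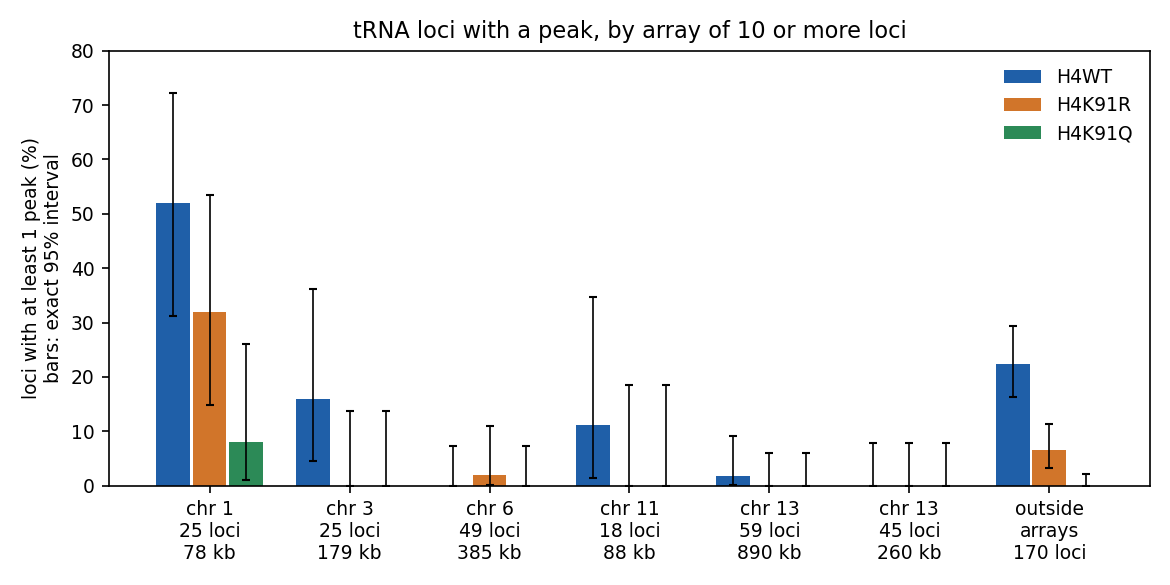
Percent of tRNA loci with at least 1 peak (y axis) in each array of at least 10 loci and outside arrays (x axis), for H4WT, H4K91R and H4K91Q. Bars are shares and whiskers exact 95% intervals. The chromosome 1 array reaches 52.0% for H4WT and 32.0% for H4K91R, and the arrays of chromosomes 6 and 13 lie between 0% and 2.04%.

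Outside arrays, the 5 loci of highest H4WT fold were within 1 kb of coding gene ends, among them n-TLaag4 beside Polr3e (fold 9.13). n-TGccc4 (glycine) lay 240 bp from an end of Tia1, an RNA-binding protein of stress granules, with an H4WT peak of fold 9.98. n-TRacg2 (arginine) lay 256 bp from Sacm1l, a phosphoinositide phosphatase gene, with folds of 9.85 for H4WT and 8.60 for H4K91R. n-TCgca51 (cysteine) lay 28 bp from Lasp1, an actin-binding protein gene, with an H4WT peak of 1466 bp and fold 9.40 and an H4K91R fold of 4.96. n-TSgct6 (serine) lay 441 bp from B4gat1, a glycosyltransferase gene, with H4WT alone at fold 8.38. In the H4K91R list, n-TMcat17 (methionine, 365 bp from Fbxo31) followed at 7.28 and n-TRtct2 (arginine) at 5.91. n-TRtct2 was the one of these far from coding genes, at 7677 bp from Dnttip2, and had an H4WT fold of 7.28.

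Some peaks at near loci covered the start of the neighbouring gene. Of the 23 H4WT peaks that touched near loci alone, 7 contained a listed protein-coding start. None of the 28 H4WT peaks at far loci alone contained a coding start or end. Far loci lie over 1 kb from every coding end by definition, so this count was largely set by the rule. At n-TFgaa3 and n-TNgtt7 on chromosome 10, 1 H4WT peak of fold 4.37 covers the start of Ndufs7, a respiratory complex I gene, and counts for both tRNA loci. The 58 H4WT loci came from 54 peaks, 20 H4K91R loci from 19 peaks.

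The loci of H4K91R were for the most part also loci of H4WT. H4WT lay at 13 of the 20 H4K91R loci (65.0%, 40.8 to 84.6), and H4K91R at 13 of the 58 H4WT loci (22.4%, 12.5 to 35.3). Over all autosomal peaks of the lists, 55.5% of H4K91R peaks overlapped an H4WT peak and 38.4% of H4WT peaks an H4K91R peak. The 22.4% counts loci, so for a like measure the peaks themselves were compared. Of the 54 H4WT peaks at tRNA loci 17 overlapped an H4K91R peak (31.5%, 19.5 to 45.6), and of the 19 H4K91R peaks 14 overlapped H4WT (73.7%, 48.8 to 90.9). Both intervals include the share of the whole list. Of the 13 common loci 7 were in the chromosome 1 array, which leaves 6 elsewhere.

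H4K91R without H4WT was found at 7 loci. n-TGgcc4 (glycine), in the chromosome 1 array, had the highest fold at 5.86, followed by n-TCgca52 (cysteine, 9738 bp from Spdya) at 5.81. A peak of fold 5.24 at chr11:115413460-115413718 lies in the windows of 3 arginine tRNA genes, n-TRcct5, n-TRcct3 and n-TRtcg4, of which n-TRcct5 is 307 bp from Mrpl58. n-TCgca12 and n-TLtag2 (leucine, fold 4.85) complete the 7. These folds are near the H4K91R list median of 5.28, with n-TGgcc4 above 66.4% of the list and n-TLtag2 above 32.8%.

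By amino acid, among kinds with at least 10 loci, H4WT ranged from 1 of 25 lysine loci (4.0%, 0.101 to 20.4) to 6 of 16 proline loci (37.5%, 15.2 to 64.6). Glycine followed proline with 8 of 28 (28.6%, 13.2 to 48.7), 5 of them in the chromosome 1 array, and leucine had 7 of 26 (26.9%, 11.6 to 47.8). All 6 proline loci with H4WT were far from coding ends. They had the anticodons AGG, CGG and TGG, at 2 loci each, and 2 pairs of them, n-TPtgg7 with n-TPagg5 and n-TPtgg8 with n-TPagg7, share a peak per pair (folds 5.85 and 7.15). Cysteine had 3 of 57, with 49 of these genes in the chromosome 6 array and all 3 H4WT loci outside it. Valine had 1 of 23 and threonine 1 of 18. Nearly all intervals overlap, so most neighbours in this order cannot be told apart. Among the named kinds only the intervals of proline and cysteine (1.1 to 14.6) just miss each other, and they treat loci as independent. With proline loci sharing peaks and 49 cysteine genes in 1 array, these 2 kinds are not shown to differ.

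H4K91R was present at 8 of the 20 kinds of tRNA gene, with arginine the highest at 5 of 23 (21.7%, 7.46 to 43.7), then glycine at 4 of 28 (14.3%, 4.03 to 32.7) and leucine and cysteine at 3 each. Of the arginine loci 3 share 1 peak on chromosome 11, and all 4 glycine loci are in the chromosome 1 array. H4WT was also at 5 arginine loci, and 2 of them had a peak in both lists, n-TRacg2 and n-TRtct2. No H4K91R peak lay at any of the 16 proline, 25 lysine, 23 valine or 21 alanine loci, which allows shares of up to 18.8%, 12.0%, 13.0% and 14.3%. The H4K91Q loci are 1 glutamate and 1 glycine gene.

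**Figure D5:**
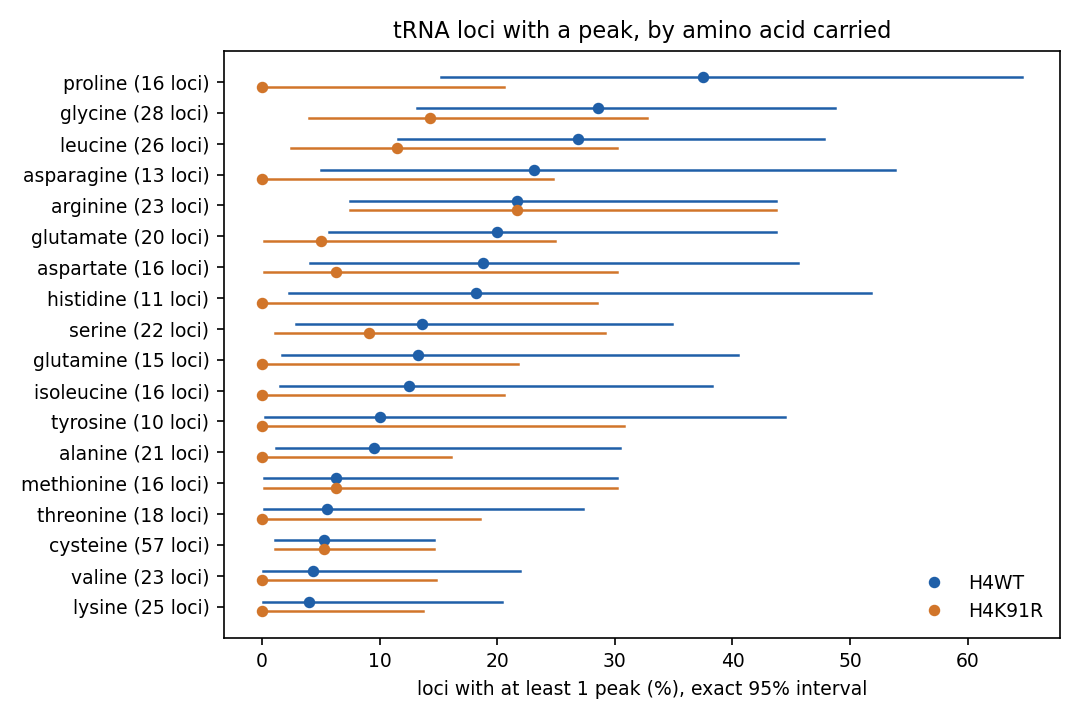
Percent of tRNA loci with an H4WT or H4K91R peak (x axis) by the amino acid carried (rows, for kinds with at least 10 loci). Points are shares and lines exact 95% intervals. H4WT runs from 4.0% at lysine to 37.5% at proline, with wide overlapping intervals.

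In strength, the H4WT and H4K91R peaks at tRNA loci, near and far together, were a little above the middle of their own lists. The 28 H4WT peaks at far loci alone had a median fold slightly below that of the list. The 54 H4WT peaks had a median fold of 6.65, from 3.50 to 13.1, against 5.71 for all autosomal H4WT peaks, and a median width of 334 bp against 267 bp. The 19 H4K91R peaks had a median fold of 5.86, from 4.64 to 11.6, against 5.28, and a median width of 358 bp against 271 bp. At a −log10 q of 5 or more, 45 of the 54 and 13 of the 19 remained. These values were given by the caller and were not compared between lists.

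Genes of the proteins that make and use tRNAs were examined at their ends, where a gene was counted when a peak overlapped 1 kb around either end. Over all 21887 protein-coding genes the shares were 58.9% for H4WT, 38.3% for H4K91R, 1.29% for H4K91Q and 1.67% for the empty vector. Of 18 subunits of RNA polymerase III, H4WT was at 11 (61.1%) and H4K91R at 9, led in both lists by Polr3f (H4K91R fold 7.09), and Polr3e, with its tRNA gene n-TLaag4, had H4WT alone. Of 17 transcription factors of the same system, H4WT was at 12 and H4K91R at 10. Gtf3c1, the TFIIIC subunit that contacts the B box, had the highest H4WT fold at 11.7 with H4K91R at 5.48, and Maf1, the repressor of the polymerase, had the highest H4K91R fold at 6.55. Snapc3, of the complex that serves snRNA genes, had an H4K91Q peak (5.49) and no other. Brf2 was the 1 gene of these lists with an empty-vector peak, and the H4K91R peak for which it was counted overlaps that peak.

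Of 20 tRNA processing and export genes, H4WT was at 14 (70.0%, 45.7 to 88.1) but H4K91R at 3 (15.0%, 3.21 to 37.9), where the upper bound lies just under the 38.3% of all genes. These 3 were Tsen34 (a subunit of the tRNA splicing endonuclease, fold 5.93), Xpot (the tRNA exporter, 5.68) and Rpp25 (an RNase P protein, 4.54). The members of highest H4WT fold, Pop5 (10.6), Tsen54 (10.4) and Tsen34 (10.1), included 2 without H4K91R. Of 20 cytosolic aminoacyl-tRNA synthetase genes, which charge tRNAs, H4WT was at 15 (75.0%, 50.9 to 91.3) and H4K91R at 13 (65.0%, 40.8 to 84.6). Here the lower bound for H4K91R lies just above the 38.3% of all genes. Several gene lists and libraries were compared without correction, so neither gene list is shown to differ from all genes in H4K91R. Kars (lysine, 11.4), Vars (valine, 10.7) and Yars (tyrosine, 9.04) had the highest H4WT folds, and Mars1 (methionine) the highest for H4K91R at 7.51 and the 1 H4K91Q peak at 4.47. The tRNA loci of lysine and valine had 1 H4WT locus each, so the synthetase genes of highest fold and the tRNA kinds of highest share were not the same. Of 8 other genes transcribed by RNA polymerase III, Rmrp had H4WT (7.16), Bc1 had H4WT (5.36) and H4K91R (4.89), and Rn7sk, Rpph1, Rny1, Rny3, Vaultrc5 and Rnu6 had no peak. These were counted within 1 kb and the tRNA loci within 500 bp, and both Bc1 peaks lie more than 500 bp from the gene. The shares of these 8 were 25.0% for H4WT (3.19 to 65.1) and 12.5% for H4K91R (0.316 to 52.7). No share of other non-coding genes within 1 kb was computed to set beside them.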

How the data were processed

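The labels' protocols describe paraformaldehyde fixation, sonication, a pulldown on anti-HA magnetic beads and NEBNext Ultra II libraries. The submitters' processing notes name MACS2 and mm10, and by the peak names every pulldown had its own line's input as control. Not given in the sources used here are the aligner, the version and threshold of MACS2 and what was done with duplicate reads. The authors deposited for each peak a score, a fold (a ratio to background at the summit), a −log10 p and a −log10 q. The score, which tracks 10 times the −log10 q, and the −log10 p were not used. The other 32 samples were not analysed here.

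Windows were overlapped with peaks in Python 3.11.15, with exact (Clopper-Pearson) 95% intervals from scipy 1.17.1 and a floor of 3 counts for a count of 0. The table held 430 tRNA genes, of which 17 on chromosome X and 22 on the mitochondrial genome fall outside the rule, and none on chromosome 18. Loci less than 500 kb apart form an array, described from 10 loci. Windows whose tRNA genes have no strand in the table were not oriented. Overlap, summit and distance steps were tested on simulated windows and recovered 100% of 2000 planted cases.

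The loci were chosen by rule, and the members and lists with earlier results of these data known. Named loci are those with a peak in all 3 tagged lists, or with H4K91Q, the 10 of highest fold for H4WT and for H4K91R, the 5 of highest fold with H4K91R and not H4WT, and every array. Pathway genes are up to 3 per list and library of highest fold, and any with H4K91Q. The 4 promoters shown, the other loci named as examples, the comparison over against beside the gene and the split by the chromosome 1 array were chosen after their values were seen. Alternatives were other windows, a stricter q, equal list length, empty-vector regions left out, summits, clusters of loci within 5 kb and a distance of 2 kb.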

Additional observations from a re-analysis of the deposited data

How the results depend on the processing

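With 1 library per group no replicate could be left out. No paired analysis was possible because each group is 1 library and the labels give no replicate numbers. Under alternatives 64 counts moved by at most 1.5 times and 23 by more, and the empty vector stayed at 0 in all settings run. On the tRNA gene body alone, H4WT fell to 8 loci (4 far), H4K91R to 6 (3 far) and H4K91Q to 1 (1 far). With 250 bp on each side, H4WT lay at 38 loci. With tagged lists of equal length, H4WT lay at 21 (8 far), H4K91R at 10 (5 far) and both at 6. Counted as clusters, H4K91R lay at 12 of 186 and H4K91Q at 1 of 186 (1 of 159 far). At 2 kb from gene ends H4K91Q lay at 0 far loci. Without the chromosome 1 array, chosen after seeing the data, H4K91R lay at 12 (5 far), H4K91Q at 0 (0 far), H4WT with H4K91R at 6, and H4K91Q with either at 0. These changes follow from smaller windows, fewer peaks or fewer loci. At a −log10 q of 5 or more, H4WT lay at 50 loci, H4K91R at 15 and H4K91Q at 2. Depth is unknown, so a locus without a peak is not shown to lack tagged H4, and how well reads map to these repeated genes was not tested.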

Other observations

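The 17 tRNA genes on chromosome X, outside the rule, had no H4WT, H4K91R or empty-vector peak within 500 bp, and 1 of them had an H4K91Q peak (5.88%, exact 95% interval 0.149 to 28.7). None of 17 allows a share of up to 17.6%, so these counts do not separate the lists.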
